A study of Mus musculus with 10 samples.

Results

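Transforming growth factor beta (TGF-beta) and bone morphogenetic protein (BMP) signalling was followed through 44 genes, out of 19096 mouse genes that could be named on the arrays. The genes had been listed by symbol as ligands, receptors, intracellular mediators, secreted inhibitors and targets. Where a gene had several probes, the brightest on average across the 10 arrays stood for it, a choice that does not use the difference between the groups. All 44 had a probe and all 44 were tested.

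RNA from whole lungs or whole lung tumours of mice was measured on 1-colour microarrays, with 5 wild-type (WT) and 5 squamous cell carcinoma (SCC) samples and 1 array per sample. WT mice had the genotype Lkb1f/f, and SCC mice had the genotype CCSPiCreLkb1f/f, so both groups carried the floxed allele of Lkb1 (Stk11), a tumour suppressor kinase that is itself not analysed here. All mice, of a strain labelled B6.129, were 13 months old and without treatment. The iCre recombinase is driven by the promoter of CCSP (Scgb1a1), a secretory protein of club cells, so deletion is directed to the airway epithelium and the stroma of a tumour keeps the gene. The labels do not say whether a mouse gave more than 1 sample, so p-values measure the spread between these samples.

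Ligands of this family bind a pair of serine/threonine kinase receptors, a type II receptor that phosphorylates a type I receptor. The type I receptor then phosphorylates receptor Smads, which join Smad4 and enter the nucleus. TGF-beta and activins act mainly through Smad2 and Smad3, and BMPs through Smad1 and Smad5. Smad6 and Smad7 inhibit the pathway from inside the cell and are themselves induced by it, and the Id genes are classic BMP targets. In the lung, BMP receptor signalling is best known from the vessel wall, where mutations of BMPR2 cause pulmonary arterial hypertension, and TGF-beta restrains epithelial growth and drives matrix production.

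Between 71.0% and 74.5% of probes were well above background on 9 arrays, with a median processed signal of 124.8 to 180.5. SCC replicate 5 stood apart, with 90.2% of probes and a median of 262.9. Across tested probes, SCC replicate 2 correlated with the WT arrays at r = 0.940 to 0.946, and WT with SCC arrays ranged from 0.850 to 0.946. The labels give no sex. Xist, the transcript of the inactive X chromosome, was below 10 log2 units on 3 arrays, those of WT replicates 2 and 3 and of SCC replicate 2, and higher on the other 7. SCC replicate 5 had both Xist, at 13.75, and the Y-linked Ddx3y, at 8.34, which was between 10.91 and 11.53 on the 3 arrays with low Xist. Slide 2 held arrays of both groups (1 WT, 3 SCC), slide 1 held the other 4 WT arrays and slide 3 the other 2 SCC arrays.

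Of the 44 genes, 19 (43.2%) were called, that is, SCC and WT differed by 2-fold or more with a limma adjusted p under 0.05. Over the 15586 tested genes, with 1 probe each, 24.9% were called, and over all 30374 tested probes 22.9%. In SCC 7 of the genes were higher (15.9%, against 11.6% of all genes) and 12 were lower (27.3%, against 13.4%). Without the fold requirement 30 genes passed (68.2%, against 53.9% of all genes), 13 higher and 17 lower (29.5% and 38.6%, against 25.5% and 28.4%). Grem1, which was called, and Acvr1b, which passed, were well above background on fewer than 4 WT arrays and were tested only through the SCC group, where they were higher. Of the other 42 genes 18 were called (42.9%, against 22.6% of genes well above background in both groups) and 28 passed (66.7%, against 53.2%). The signals of both groups did not overlap for 21 genes (47.7%, against 41.4% of all genes), among them 16 of the 19 called. The median difference, SCC minus WT, was 0.09 log2 units over the 44 genes and -0.04 over all tested genes. The tissue was not separated into cells, so fewer cells of a type and less RNA per cell cannot be told apart.

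**Figure D1:**
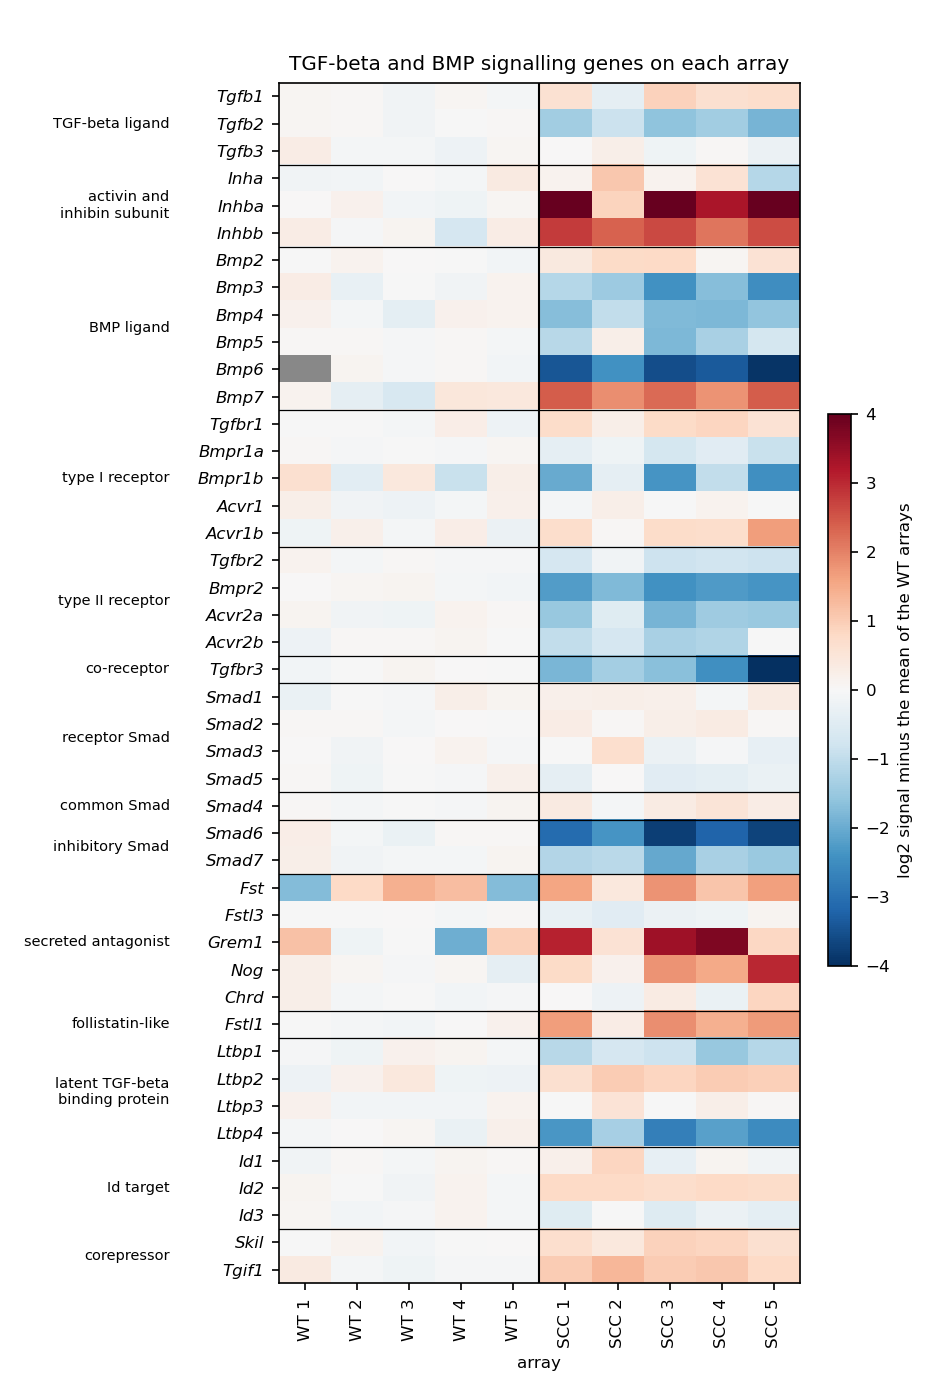
Each row is 1 of the 44 genes, ordered by role, and each column is 1 array. Colour gives the normalized log2 signal minus the mean of the WT arrays, red for higher and blue for lower, and differences beyond 4 log2 units take the end colours. The grey cell is Bmp6 on WT replicate 1, whose spot carried an outlier flag. Inhba, Inhbb and Bmp7 form red bands and Bmp6, Bmpr2, Smad6 and Ltbp4 blue bands across the SCC arrays, and SCC replicate 2 is paler than the others in most bands.

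SCC replicate 2 was the SCC array nearest to the WT arrays in 15 of the 19 called genes, and in 2759 of 3887 called genes over the whole array (71.0%). Leaving it out gave 19 calls (against 28.1% of all genes), 6 higher and 13 lower (against 13.1% and 15%). Leaving out SCC replicate 5 gave 20 calls (against 23.9% of all genes), and leaving out both gave 21 (against 28%). Fitting slide as a fixed block (called within slide here) makes the difference rest on slide 2, with its 1 WT array. It gave 11 calls (against 11.7% of all genes), 4 higher and 7 lower (against 5.24% and 6.43%), and all 19 called genes kept their direction. Of the 30 genes that passed, 12 also passed within slide (12 of 44, against 14.9% of all genes). The other 18, all in the same direction, had adjusted p of 0.0531 to 0.595 there, and they were Inhba, Bmp2, Bmp3, Bmp5, Tgfbr1, Bmpr1a, Bmpr1b, Acvr1b, Tgfbr2, Acvr2a, Acvr2b, Tgfbr3, Grem1, Nog, Fstl1, Ltbp1, Id3 and Skil. Under normexp, another background correction, 12 were called, and the 7 genes that lost the call, Bmpr1b, Acvr2a, Tgfbr3, Grem1, Nog, Ltbp1 and Tgif1, differed by 0.63 to 0.85 log2 units in the same directions. A call under every alternative that gave a fit per gene was kept by 9 of the 19, namely Tgfb2, Inhbb, Bmp4, Bmp6, Bmp7, Bmpr2, Smad6, Smad7 and Ltbp4. The same tally was not made over all called genes, so it has no share to stand against.

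Markers of other cell types moved with the groups. The summed signal of 8 endothelial markers was 307994 to 379332 on the WT arrays and 51907 to 108737 on the SCC arrays, with SCC replicate 2 highest, and 7 of the 8 were called lower. All 8 were well above background on every array. Of 7 squamous markers all were called higher, with a sum of 290.3 to 367.8 in WT and 79045 to 569146 in SCC, where SCC replicate 2 was lowest. In WT, no array had Krt6a, Dsg3 or Sprr1b well above background. Among 7 fibroblast markers 4 were called lower and 3 were not called, of which Col1a1 and Col3a1 rose by 0.66 and 0.53 (adjusted p 0.00581 and 0.0062), with sums of 113707 to 129747 in WT and 79416 to 110899 in SCC. All 4 cycling markers were higher, 3 of 5 neutrophil markers were higher and 3 of 3 mesothelial markers were lower. Markers called lower were 4 of 5 for alveolar type 1 cells, 2 of 3 for club cells, 1 of 4 for ciliated cells, 3 of 5 for smooth muscle, 4 of 4 for cardiac muscle, 3 of 4 for T cells and 3 of 3 for B cells. The other alveolar type 1 marker, Aqp5, passed in the opposite direction, higher by 0.64 (adjusted p 0.0233). Of 5 macrophage markers 1, Cd68, was called higher. The other macrophage markers were split, with Mrc1 passing higher by 0.65 (adjusted p 0.0419) and Marco and Csf1r lower by 0.75 and 0.50 (adjusted p 0.0199 and 0.00517). Neutrophil and macrophage sums were 25185 to 45337 and 35129 to 57630 in WT. SCC replicate 2, at 15526 and 33973, was the lowest of all arrays in both. No alveolar type 2 marker out of 7 was called, but 3 passed below 2-fold, with Sftpb, Sftpa1 and Lamp3 lower by 0.86, 0.74 and 0.81 (adjusted p 0.0095, 0.000123 and 0.00064). Each of the 7 cleared background on every array, and Sftpc had the top normalized value on 7 arrays. The part of cell make-up in the differences described here was not tested.

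**Figure D2:**
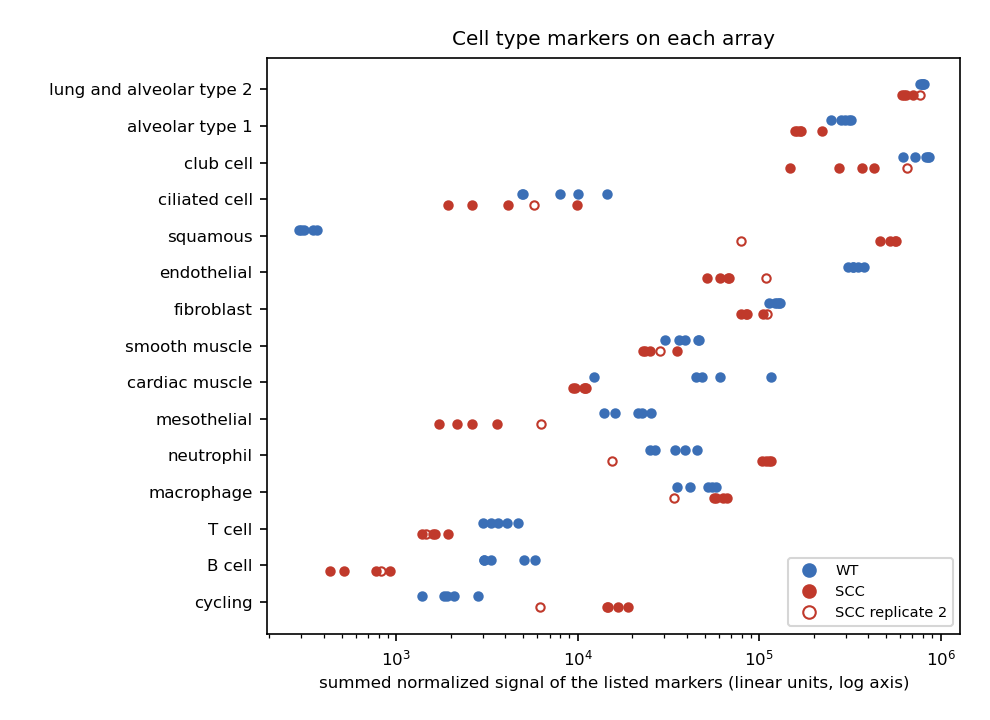
Each row is a list of cell type markers, and the log axis gives their summed normalized signal, in linear units, on each array. Blue points are the 5 WT arrays, red points the 5 SCC arrays, and the open circle is SCC replicate 2. Endothelial sums are at most 108737 in SCC and at least 307994 in WT, squamous sums are at least 79045 in SCC and at most 367.8 in WT, and alveolar type 2 sums, which include Sftpc at the top of the scale, lie close together.

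Promoters of 6 genes are shown because these genes carry the largest differences among ligands, receptors and inhibitory Smads that have a window in the table (Inhba, Inhbb, Bmp6, Bmpr2, Smad6), or belong to the Id target that passed and did not overlap between groups (Id2). Each window holds 300 bases, 250 before and 50 after the start of the gene, from RefSeq (GRCm38.p6), 5′ to 3′ on the gene's strand. Capitals mark matches, on either strand, to the Smad box GTCTG, the GC-rich Smad box GGCGCC, the E-box CACGTG, or GTCTAGAC, an inverted repeat of the 4-base core of the Smad box that was added after the windows had been seen. None of these motifs lies within another, and a Smad box on the other strand reads CAGAC. The windows are chr13:16011601-16011900 on the plus strand for Inhba, chr1:119422199-119422498 on the minus strand for Inhbb, chr13:38345466-38345765 on the plus strand for Bmp6, chr1:59764029-59764328 on the plus strand for Bmpr2, chr9:64022010-64022309 on the minus strand for Smad6 and chr12:25096043-25096342 on the minus strand for Id2.
Inhba: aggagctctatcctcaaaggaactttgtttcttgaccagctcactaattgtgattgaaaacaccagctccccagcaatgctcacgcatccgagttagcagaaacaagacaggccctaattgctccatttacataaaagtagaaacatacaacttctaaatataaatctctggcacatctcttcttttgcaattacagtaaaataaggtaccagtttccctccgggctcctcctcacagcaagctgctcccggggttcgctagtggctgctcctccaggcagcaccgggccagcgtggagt
Inhbb: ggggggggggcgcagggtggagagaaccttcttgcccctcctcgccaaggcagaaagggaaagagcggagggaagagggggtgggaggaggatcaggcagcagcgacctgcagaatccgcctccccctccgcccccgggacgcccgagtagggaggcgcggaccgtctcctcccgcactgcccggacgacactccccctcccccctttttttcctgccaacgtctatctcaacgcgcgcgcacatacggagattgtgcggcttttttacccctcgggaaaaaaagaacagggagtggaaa
Bmp6: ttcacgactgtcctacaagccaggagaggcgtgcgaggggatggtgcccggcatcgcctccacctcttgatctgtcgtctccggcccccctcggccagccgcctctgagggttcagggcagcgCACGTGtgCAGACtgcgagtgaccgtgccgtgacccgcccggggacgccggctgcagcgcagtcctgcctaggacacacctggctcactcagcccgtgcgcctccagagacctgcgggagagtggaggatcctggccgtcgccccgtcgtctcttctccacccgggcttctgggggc
Bmpr2: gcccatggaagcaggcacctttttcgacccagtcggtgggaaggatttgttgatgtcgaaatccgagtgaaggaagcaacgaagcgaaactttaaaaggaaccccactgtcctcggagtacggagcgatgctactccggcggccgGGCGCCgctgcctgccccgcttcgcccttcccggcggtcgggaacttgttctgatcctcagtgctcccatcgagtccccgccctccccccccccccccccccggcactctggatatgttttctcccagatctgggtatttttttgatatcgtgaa
Smad6: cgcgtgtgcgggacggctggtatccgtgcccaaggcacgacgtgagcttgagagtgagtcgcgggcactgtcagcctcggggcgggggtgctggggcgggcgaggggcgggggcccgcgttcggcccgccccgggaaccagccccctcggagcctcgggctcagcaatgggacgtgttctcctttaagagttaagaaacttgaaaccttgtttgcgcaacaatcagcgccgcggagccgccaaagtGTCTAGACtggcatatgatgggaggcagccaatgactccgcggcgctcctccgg
Id2: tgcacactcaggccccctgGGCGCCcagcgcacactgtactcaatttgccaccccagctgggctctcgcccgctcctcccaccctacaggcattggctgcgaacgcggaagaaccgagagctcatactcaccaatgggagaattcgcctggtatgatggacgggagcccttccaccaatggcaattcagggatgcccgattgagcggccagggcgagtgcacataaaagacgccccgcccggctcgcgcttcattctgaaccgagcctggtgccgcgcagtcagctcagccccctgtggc

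Of the 44 genes 32 had a promoter window, 14 of them among the 19 called. The Smad box was in a window of 18 of these 32 genes (56.2%) and of 53.2% of all 27025 genes with a window. The GC-rich Smad box was in 9 of 32 (28.1%, against 13.4% of all genes), among them Bmpr2 and Id2, and the E-box in 4 of 32 (12.5%, against 8.09%), among them Bmp6. Smad6 was the only listed gene with GTCTAGAC, which was in 67 of the 27025 genes (0.248%). The windows of Inhba and Inhbb held none of these letters. A match describes the letters in these windows and is not a measured binding site.

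Among TGF-beta ligands, 1 of 3 was called (against 24.9% of all genes). Tgfb2, which acts in lung development and needs a co-receptor to bind well, had log2 signals of 10.37, 10.35, 10.15, 10.29 and 10.36 in WT and of 8.91, 9.45, 8.68, 8.92 and 8.44 in SCC, in the order of the replicate numbers, as throughout. Every SCC array was below every WT array. Tgfb2 fell by 1.43 (SE 0.17, adjusted p 0.000124), a 2.69-fold difference. Tgfb1, the main TGF-beta of immune and stromal cells, was at 9.56 to 9.78 in WT and at 10.31, 9.33, 10.61, 10.33 and 10.39 in SCC. SCC replicate 2 was below all WT arrays and the other 4 were above them. The difference of 0.50 did not pass (SE 0.21, adjusted p 0.0772), and it was 0.72 without SCC replicate 2 (adjusted p 0.000156, within 0.000156 to 0.480 over all alternatives). Tgfb3, the remaining isoform, was at 11.76 to 12.27 in WT and 11.74 to 12.22 in SCC, a difference of -0.02 (adjusted p 0.895).

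Activins are dimers of inhibin beta subunits, and both of the listed beta subunits, Inhba and Inhbb, were higher in SCC. Inhba, which encodes the subunit of activin A, was at 8.15, 8.31, 8.04, 7.97 and 8.23 on the WT arrays and at 12.54, 9.04, 13.09, 11.40 and 12.89 on the SCC arrays. Every SCC array was above every WT array, but SCC replicate 2 was 0.73 log2 units above the highest WT array, and the others were 3.09 or more above it. Inhba rose by 3.65 (SE 0.68, adjusted p 0.00173), which is 12.6-fold and the largest rise among the 44 genes. Without SCC replicate 2 its difference was 4.34. It was 3.33 within slide and no longer passed (adjusted p 0.147, the highest of its alternatives, which began at 1.43e-06).

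Inhbb, which encodes the subunit of activin B, was at 10.44, 10.10, 10.27, 9.49 and 10.46 in WT and at 12.96, 12.50, 12.78, 12.31 and 12.76 in SCC. The SCC arrays lay within 0.65 log2 units of each other and all above the WT arrays. Inhbb rose by 2.51 (SE 0.20, adjusted p 1.51e-05), or 5.69-fold. A dimmer second probe of Inhbb differed by 1.10 and did not pass (adjusted p 0.145). Inha, the alpha subunit that turns activin into its antagonist inhibin, was at 6.41 to 6.91 in WT and 5.42 to 7.65 in SCC, a difference of 0.16 (adjusted p 0.723).

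All 6 BMP ligands passed the adjusted threshold (against 53.9% of all genes), and they went both ways: Bmp3, Bmp4, Bmp5 and Bmp6 were lower, and Bmp2 and Bmp7 higher. Of the 6, 4 were called (against 24.9%), and Bmp4, Bmp6 and Bmp7 passed within slide. Bmp6, a ligand best known for its control of hepcidin in the liver, was at 12.92, 12.73, 12.85 and 12.67 on WT arrays 2 to 5 and at 9.37, 10.36, 9.23, 9.44 and 8.86 in SCC. Its spot on WT replicate 1 carried an outlier flag and was left out. The nearest SCC array was 2.31 log2 units below the WT arrays. Bmp6 fell by 3.34 (SE 0.27, adjusted p 2.54e-05), or 10.1-fold, the largest fall among the 44 genes, close to that of Smad6 (3.23). Within slide the order turned, with Bmp6 at -3.02 and Smad6 at -3.11. A second probe, measured on all 10 arrays, fell by 2.83 (adjusted p 2.14e-05).

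Bmp4, a ligand that patterns the lung bud, was at 12.35, 12.09, 11.77, 12.36 and 12.30 in WT and at 10.47, 11.20, 10.40, 10.39 and 10.59 in SCC. The highest SCC array, replicate 2, was still below every WT array. Bmp4 fell by 1.56 (SE 0.18, adjusted p 0.000113). Bmp3, an atypical member that antagonises other BMPs, was at 10.71, 10.11, 10.41, 10.27 and 10.55 in WT and at 9.27, 8.95, 7.98, 8.69 and 7.94 in SCC. The groups did not overlap, and SCC replicates 3 and 5 were lowest. Bmp3 fell by 1.85 (SE 0.26, adjusted p 0.000371), and differed by -1.82 within slide (adjusted p 0.0531, from 0.000131 to 0.0531 over all alternatives).

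Bmp7, an epithelial ligand best known from kidney development, was at 9.09, 8.59, 8.31, 9.42 and 9.36 in WT and at 11.37, 10.81, 11.22, 10.74 and 11.37 in SCC. All SCC arrays were above all WT arrays. Bmp7 rose by 2.15 (SE 0.24, adjusted p 9.04e-05), or 4.43-fold, and its second probe by 2.10. Bmp5, close in sequence to Bmp6 and Bmp7, was at 9.92 to 10.05 in WT and at 8.89, 10.23, 8.19, 8.70 and 9.30 in SCC. The WT range lay below SCC replicate 2 and above the other 4. The difference of -0.93 passed (adjusted p 0.0342), and without SCC replicate 2 it was -1.23, enough for a call (adjusted p 0.00061, from 4.51e-05 to 0.440 over all alternatives). In 11 of its 22 alternatives Bmp5 did not pass, among them without any 1 of the WT replicates or of SCC replicates 1, 3 or 4. Its second probe differed by -0.81 and did not pass (adjusted p 0.102). Bmp2 rose by 0.52 (adjusted p 0.0117), from 5.92 to 6.19 in WT to 6.13 to 6.85 in SCC.

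**Figure D3:**
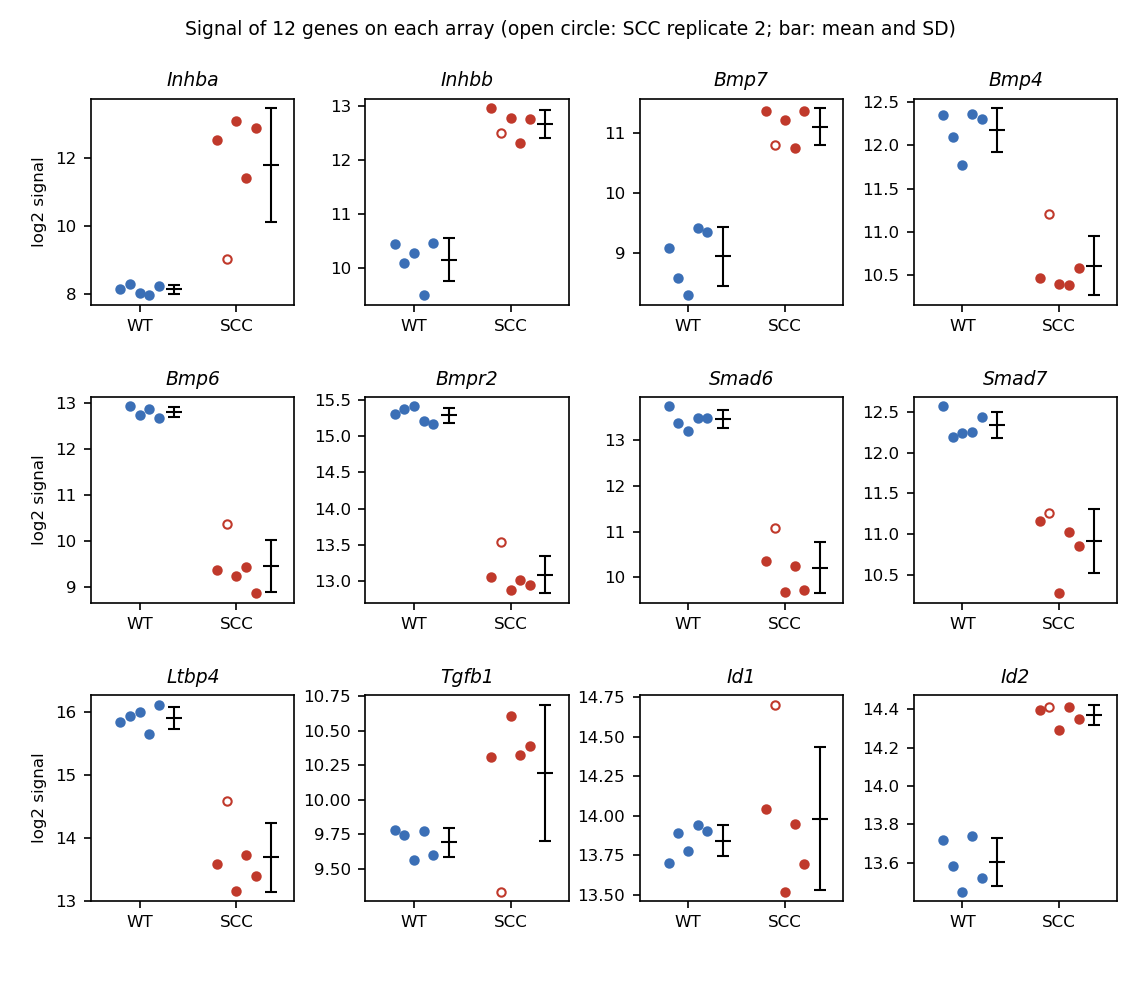
Normalized log2 signal of 12 of the genes on each array, with WT in blue, SCC in red and SCC replicate 2 as an open circle, each panel with its own axis. Bars beside the points give the mean and SD of the group, with 5 arrays each except Bmp6 in WT, which has 4. WT and SCC points overlap only for Tgfb1 and Id1, and SCC replicate 2 is the SCC point nearest to WT for Inhba, Bmp4, Bmp6, Bmpr2, Smad6, Smad7 and Ltbp4.

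All 4 type II receptors, Tgfbr2, Bmpr2, Acvr2a and Acvr2b, passed and were lower in SCC (against 28.4% of all genes), and 2 of them were called (against 13.4%). Within slide Bmpr2 was the 1 that passed. Bmpr2, the BMP type II receptor, was at 15.30, 15.37, 15.41, 15.21 and 15.17 in WT and at 13.06, 13.54, 12.88, 13.02 and 12.95 in SCC. The groups were separated by 1.63 log2 units. Bmpr2 fell by 2.20 (SE 0.13, adjusted p 3.24e-06), or 4.60-fold, and its other probes fell by 1.94 and 1.71. Acvr2a, a type II receptor for activins and some BMPs, was at 8.48, 8.24, 8.22, 8.54 and 8.44 in WT and at 6.86, 7.91, 6.52, 6.97 and 6.89 in SCC. SCC replicate 2 lay closest to the WT arrays, still below them. The second probe of Acvr2a was also lower on every SCC array than on every WT array. That probe differed by -0.84 (adjusted p 0.102), and by -0.42 without SCC replicate 5 (adjusted p 0.0108). On the probe used, Acvr2a fell by 1.35 (SE 0.23, adjusted p 0.000948). Under normexp it differed by -0.83, below 2-fold, and within slide it did not pass (adjusted p 0.0944, from 2.71e-06 to 0.0944 over all alternatives).

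Tgfbr2, the TGF-beta type II receptor and a tumour suppressor in several epithelia, was at 15.29, 15.08, 15.20, 15.10 and 15.11 in WT and at 14.48, 15.02, 14.32, 14.40 and 14.33 in SCC. All SCC arrays were below all WT arrays, SCC replicate 2 by 0.06. Tgfbr2 fell by 0.64 (SE 0.14, adjusted p 0.00392), or 1.56-fold. Within slide it differed by -0.50 and did not pass (adjusted p 0.239, from 1.93e-05 to 0.239 over all alternatives). Acvr2b, the other activin type II receptor, fell by 0.83 (adjusted p 0.0116), and by 1.03, enough for a call, without SCC replicate 5, which at 8.23 was within the WT range of 8.07 to 8.36.

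The co-receptor Tgfbr3 (betaglycan), which presents TGF-beta2 and inhibin to the receptors, was at 6.82, 6.91, 7.04, 6.94 and 6.89 in WT and at 5.09, 5.58, 5.24, 4.48 and 2.57 in SCC. All SCC arrays were lower, and SCC replicate 5 was 1.91 below the next. Tgfbr3 fell by 2.33 (SE 0.49, adjusted p 0.0034), and without SCC replicate 5 by 1.83 (adjusted p 9.62e-05). Under normexp the difference was -0.84, below 2-fold. Within slide it was -1.59 and did not pass (adjusted p 0.119, from 7.49e-06 to 0.119 over all alternatives).

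Among the 5 type I receptors 1 was called (20%, against 24.9% of all genes) and 4 passed (80%, against 53.9%). One of the 4, Acvr1b, was tested only through the SCC group, where it was higher. Leaving Acvr1b out, Bmpr1b, Tgfbr1 and Bmpr1a passed and Acvr1 did not, against 53.2% passing of genes well above background in both groups. Bmpr1b was called, Tgfbr1 and Bmpr1a passed below 2-fold, and Acvr1b passed with WT signals partly in the background. None of them passed within slide, where Tgfbr1 had an adjusted p of 0.0859 (from 5.86e-05 to 0.0859 over all alternatives) and Bmpr1a one of 0.243 (from 0.000848 to 0.243). Bmpr1b, a BMP receptor best known from cartilage and ovary, was at 7.94, 6.86, 7.71, 6.42 and 7.53 in WT and at 5.27, 6.94, 4.94, 6.31 and 4.84 in SCC. The groups overlapped, since SCC replicate 2 was above WT replicates 2 and 4. Bmpr1b fell by 1.63 (SE 0.46, adjusted p 0.0146, exact permutation p 0.0238). It lost the call through its adjusted p under 75th-percentile scaling (difference -1.30, adjusted p 0.0524), with the replicate number as a block (-1.63, 0.0609) and within slide (-1.81, 0.229), and through its size under normexp (-0.79). Its adjusted p ranged from 0.00186 to 0.229 over all alternatives.

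Tgfbr1, the TGF-beta type I receptor, rose by 0.64 (adjusted p 0.00354), from 11.72 to 12.18 in WT to 12.17 to 12.78 in SCC. Bmpr1a, the widespread BMP type I receptor, fell by 0.51 (adjusted p 0.0111), though its second probe differed by 0.05 (adjusted p 0.818). Acvr1b, the activin type I receptor, was well above background on 3 of 5 WT arrays and on all SCC arrays, so that its WT level is in part not measured. Its fitted difference was 0.78 (adjusted p 0.0312), and it did not pass in 10 of its 20 alternatives (adjusted p 0.00121 to 0.273). Acvr1 (Alk2) was at 10.77 to 11.21 in WT and 10.89 to 11.21 in SCC (adjusted p 0.761).

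**Figure D4:**
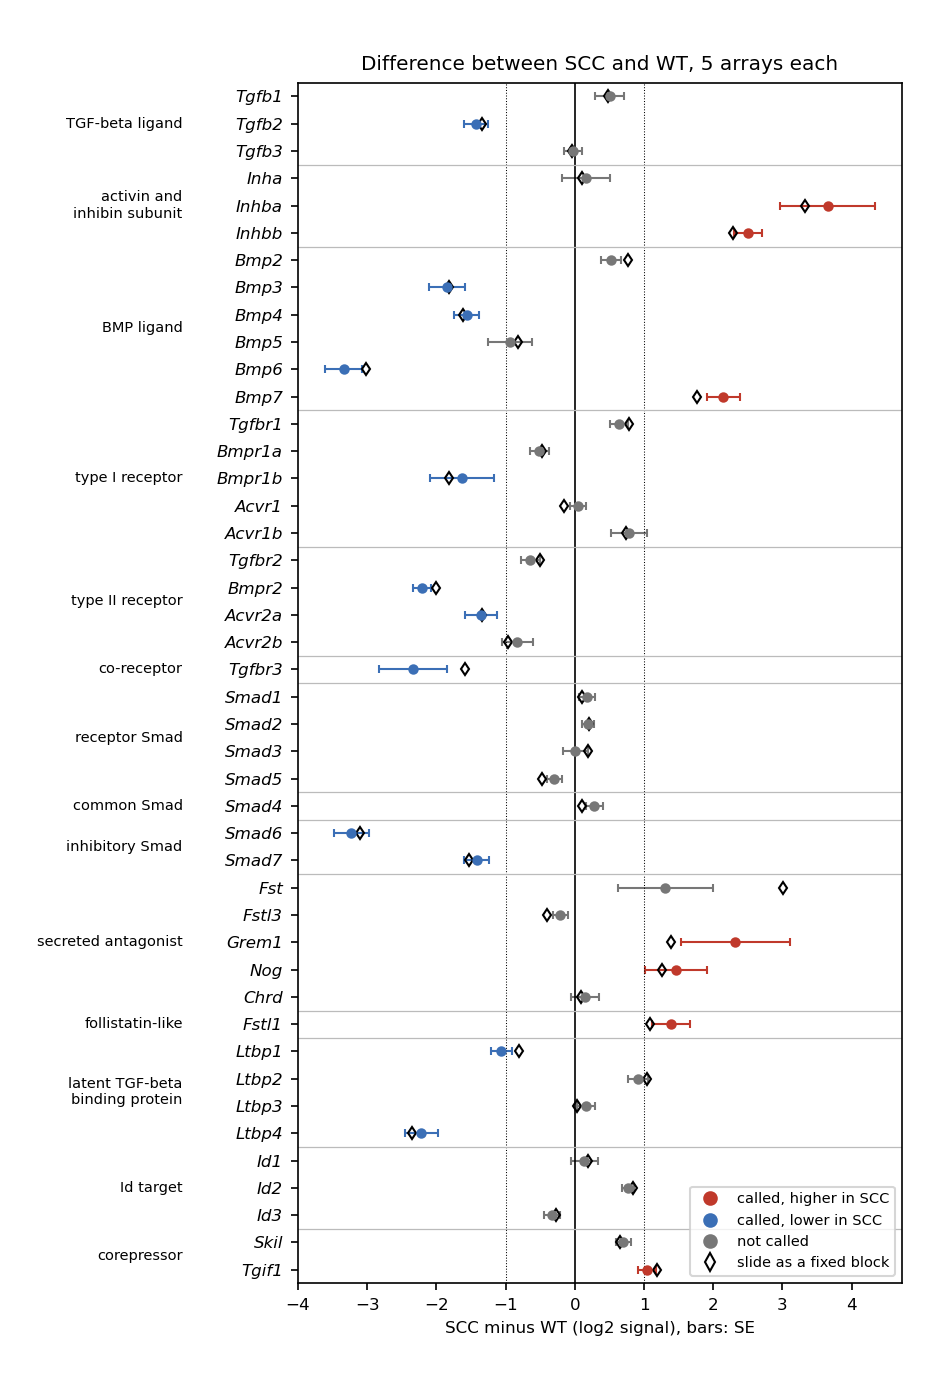
Points give the difference, SCC minus WT, in log2 signal for each of the 44 genes, with bars for the standard error. Red and blue points were called higher and lower, grey points were not called, dotted lines mark a 2-fold difference, and open diamonds give the difference with slide as a fixed block. Every called gene has its diamond on the same side of 0, and the diamond of Fst lies farthest from its point, at 3.01 against 1.31.

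The probes used for the receptor Smads and Smad4 did not pass, and the inhibitory Smads were both called lower (against 13.4% of all genes). Smad1, Smad2, Smad3 and Smad5 differed by 0.18, 0.19, 0.01 and -0.29, with adjusted p of 0.223, 0.104, 0.967 and 0.0576, and a second probe of Smad1 passed at 0.38 (adjusted p 0.0397). Smad4, the partner shared by all branches, was at 13.51 to 13.68 in WT and 13.49 to 14.11 in SCC, a difference of 0.28 (adjusted p 0.0679), and a second probe of Smad4 passed at 0.41 (adjusted p 0.0211). Without SCC replicate 2, Smad4 (0.38, adjusted p 0.0025), Smad2 (0.23, adjusted p 0.0326) and Smad5 (-0.37, adjusted p 0.00791) passed. Over all alternatives their adjusted p ranged from 0.000615 to 0.795, 0.00215 to 0.485 and 0.00573 to 0.906.

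Smad6, which blocks BMP signalling more than TGF-beta signalling, was at 13.72, 13.37, 13.18, 13.48 and 13.48 in WT and at 10.35, 11.07, 9.68, 10.25 and 9.73 in SCC. The gap between the groups was 2.11 log2 units. Smad6 fell by 3.23 (SE 0.25, adjusted p 1.24e-05), or 9.36-fold. Smad7, which blocks both branches, was at 12.56, 12.18, 12.24, 12.26 and 12.43 in WT and at 11.17, 11.26, 10.28, 11.02 and 10.86 in SCC. Every SCC array was below every WT array. Smad7 fell by 1.42 (SE 0.18, adjusted p 0.000191), or 2.67-fold. The endothelial marker sums given above fell on the same arrays as Smad6, Bmpr2 and Bmp6, with SCC replicate 2 the SCC array nearest to WT in each. That array was also the nearest to WT in the fibroblast, club cell and mesothelial sums, at 110899, 653241 and 6262, and in 71.0% of all called genes. The part of these lists in the differences was not tested.

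Secreted antagonists bind the ligands outside the cell, and of the 5 Nog and Grem1 were called (40%, against 24.9% of all genes). Grem1 was tested only through the SCC group, where it was higher. Leaving Grem1 out, Nog was called and 3 were not, against 22.6% called of genes well above background in both groups. Those 3 did not pass either. Nog and Grem1 had signals near the low end of the array. Grem1 (gremlin), which binds BMP2 and BMP4, was at 5.36, 4.02, 4.16, 2.23 and 5.14 in WT and at 7.27, 4.75, 7.57, 7.90 and 5.02 in SCC. SCC replicates 2 and 5 lay within the WT range, and Grem1 was well above background on 2 of 5 WT arrays, so its WT level is in part not measured. The fitted difference was 2.32 (SE 0.79, adjusted p 0.0336, exact permutation p 0.0476). It lost the call without any 1 of WT replicates 2, 3 or 4 or SCC replicates 1, 3 or 4, where the difference was 1.83 to 2.32 and adjusted p 0.0633 to 0.0774, with the replicate number as a block (adjusted p 0.0750), by the methods' t-test (0.0572) and under normexp (0.74). Within slide the difference was 1.39 (adjusted p 0.595, from 0.000573 to 0.595 over all alternatives).

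Nog (noggin), a BMP antagonist, was at 5.26, 5.13, 5.01, 5.13 and 4.70 in WT and at 5.83, 5.23, 6.83, 6.56 and 8.06 in SCC. The signal on SCC replicate 2 was within the WT range, and replicate 5 was highest. Nog rose by 1.46 (SE 0.45, adjusted p 0.0223, exact permutation p 0.0159). It lost the call without WT replicate 5 (adjusted p 0.0519) or SCC replicate 3 (0.0509), with the replicate number as a block (0.0546), within slide (1.27, adjusted p 0.239) and under normexp (0.63), and its adjusted p ranged from 0.000813 to 0.239 over all alternatives.

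Fst (follistatin), the activin-binding antagonist, was at 6.87, 9.39, 10.04, 9.85 and 6.86 in WT and at 10.18, 9.02, 10.41, 9.73 and 10.23 in SCC. The WT arrays themselves split, with replicates 1 and 5 below every SCC array and the other 3 within the SCC range. The difference of 1.31 did not pass (SE 0.69, adjusted p 0.141), and within slide, where WT replicate 5 is the only WT array, it was 3.01 (adjusted p 0.127, from 0.0792 to 0.291 over all alternatives). Fstl3, a second activin-binding protein, differed by -0.21 (adjusted p 0.132) and Chrd (chordin), a BMP antagonist, by 0.14 (adjusted p 0.572).

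Fstl1, a follistatin-like secreted protein of mesenchymal cells, was at 12.39, 12.32, 12.27, 12.40 and 12.58 in WT and at 14.06, 12.68, 14.25, 13.80 and 14.11 in SCC. On SCC replicate 2 it was 0.10 above the highest WT array and on the other 4 arrays 1.22 or more above it. Fstl1 rose by 1.39 (SE 0.27, adjusted p 0.00216), and by 1.66 without SCC replicate 2. Within slide it rose by 1.09 and did not pass (adjusted p 0.209, from 1.29e-06 to 0.209 over all alternatives).

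Latent TGF-beta binding proteins hold newly made TGF-beta inactive in the matrix, except Ltbp2, which does not bind it. Ltbp4, abundant in lung and needed for elastic fibres, was at 15.84, 15.94, 16.00, 15.65 and 16.12 in WT and at 13.58, 14.59, 13.16, 13.74 and 13.40 in SCC. The groups were 1.06 log2 units apart. Ltbp4 fell by 2.22 (SE 0.24, adjusted p 7.35e-05), or 4.65-fold. Ltbp1 was at 9.62, 9.47, 9.82, 9.77 and 9.58 in WT and at 8.54, 8.98, 8.82, 8.13 and 8.50 in SCC. The groups did not overlap. Ltbp1 fell by 1.06 (SE 0.16, adjusted p 0.000477), close to the 2-fold threshold, but its second, dimmer probe differed by -0.11 (adjusted p 0.825).

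The call of Ltbp1 was lost without SCC replicate 4 (-0.94), under normexp (-0.85) and with the mean of its probes (-0.58, adjusted p 0.0373), and within slide it differed by -0.80 (adjusted p 0.0687, from 2.65e-05 to 0.0687 over all alternatives). Ltbp2 rose by 0.91 (SE 0.15, adjusted p 0.000715), with every SCC array (13.90 to 14.28) above every WT array (13.04 to 13.66), and was called with slide as a fixed block at 1.05. Without WT replicate 3 its difference was 1.01, which also made a call. Ltbp3 differed by 0.16 (adjusted p 0.322).

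Id genes encode inhibitors of helix-loop-helix transcription factors, and of 3 listed 1 rose, 1 fell and 1 did not pass (against 25.5% and 28.4% of all genes that passed higher and lower). Id2 was at 13.72, 13.58, 13.45, 13.74 and 13.52 in WT and at 14.39, 14.41, 14.29, 14.41 and 14.35 in SCC. The SCC arrays, replicate 2 included, lay within 0.12 log2 units of each other and all above the WT arrays. Id2 rose by 0.77 (SE 0.09, adjusted p 8.03e-05), or 1.70-fold, and a second probe by 0.88. Id3 fell by 0.33 (adjusted p 0.0348), and did not pass in 10 of its 21 alternatives (adjusted p 0.00195 to 0.479). Id1 was at 13.70, 13.89, 13.77, 13.94 and 13.90 in WT and at 14.04, 14.70, 13.52, 13.94 and 13.69 in SCC. The highest SCC array was replicate 2 and the lowest replicate 3, on either side of the WT range. Id1 differed by 0.14 (SE 0.20, adjusted p 0.582).

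Tgif1 and Skil, corepressors of Smad complexes, were higher, and Ski, a relative of Skil from the second list below, fell by 0.73 (adjusted p 0.000203). Tgif1 was at 9.12, 8.68, 8.60, 8.72 and 8.70 in WT and at 9.79, 10.10, 9.77, 9.84 and 9.55 in SCC. All SCC arrays were above all WT arrays. Tgif1 rose by 1.05 (SE 0.13, adjusted p 0.000164), or 2.07-fold, and without SCC replicate 2, the highest array, by 0.98, below the 2-fold threshold, as it was under normexp (0.85). Skil (SnoN), which is induced by TGF-beta and represses its targets, rose by 0.70 (SE 0.11, adjusted p 0.000651), from 11.30 to 11.56 in WT to 11.83 to 12.34 in SCC. A second, dimmer probe of Skil rose by 1.71 (adjusted p 0.000644) and was called.

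Of the 44 genes 18 had more than 1 probe. Of their 20 further probes, 18 had the same sign as the probe used, and the exceptions were in Bmpr1a, described above, and Smad5, where 1 of 2 further probes differed by 0.41 (adjusted p 0.326). In 7 genes a further probe fell on the other side of the adjusted threshold. Without adjustment, the exact permutation test gave its smallest possible p, 0.00794, for the 16 called genes whose groups did not overlap. Groups that do not overlap give that p by design, as 41.4% of all tested genes did, so it is no further evidence.

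A second list held 47 other genes of the pathways, of which 44 had a probe and 40 were tested. Of these 18 were called (45%, against 24.9% of all genes), 6 higher (15%, against 11.6%) and 12 lower (30%, against 13.4%). Without Sostdc1, which was tested only through the SCC group, 17 of 39 were called (43.6%, against 22.6% of genes well above background in both groups), 5 higher and 12 lower. Among its receptors and co-receptors 4 of 6 tested were called lower (against 13.4%) and none higher. Eng (endoglin), an endothelial co-receptor, was at 13.36, 13.28, 13.07, 13.17 and 13.14 in WT and at 10.47, 10.93, 10.06, 10.36 and 10.35 in SCC. Eng fell by 2.77 (SE 0.15, adjusted p 2.11e-06), and Acvrl1 (Alk1), the endothelial type I receptor that works with it, by 2.37 (adjusted p 1.15e-05). Both are genes of endothelial cells, whose markers were lower in SCC, as were those of several other cell types given above. The part of cell make-up in these falls was not tested. Amhr2, the receptor of anti-Mullerian hormone, fell by 2.25 and Rgma, a BMP co-receptor, fell by 1.41.

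Of 13 tested extracellular regulators 7 were called (53.8%, against 24.9% of all genes), 3 higher and 4 lower (against 11.6% and 13.4%). Sostdc1, among the 3, was tested only through the SCC group, where it was higher. Leaving Sostdc1 out, Thbs1 and Itgav were called higher beside the 4 lower, against 22.6% called of genes well above background in both groups. The BMP binding proteins Chrdl1 and Bmper fell by 3.79 and 1.78 (adjusted p 9.40e-05 and 0.000215), and decorin (Dcn), a matrix proteoglycan that binds TGF-beta and is also on the fibroblast list, by 1.34. In the opposite direction Sostdc1, an antagonist of BMP and Wnt in ectodermal organs, was at 9.63, 7.29, 7.53, 7.86 and 5.75 in SCC and well above background on no WT array. It was at least 11.9-fold higher in SCC, computed against the lowest signal counted as above background on each WT array or the probe's own signal, whichever was higher. Having been tested only through the SCC group, it has no p-value to rest on. Thrombospondin 1 (Thbs1) and integrin alpha-v (Itgav), which activate latent TGF-beta, rose by 1.26 and 1.10 (adjusted p 0.000545 and 0.00131), and Itgb6, the epithelial partner of Itgav, fell by 0.60 (adjusted p 0.0214).

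Ligands on the second list included Bmp8a, which rose by 2.10 (adjusted p 2.11e-06), Inhbe, which rose by 1.71 (adjusted p 0.00499), and Gdf10, which fell by 1.62 (adjusted p 0.0225). Among intracellular genes, Pmepa1, a TGF-beta-induced gene that limits Smad activation, rose by 1.90 (adjusted p 1.87e-05), and the ubiquitin ligase Smurf2 and the coactivator Tgfb1i1 fell by 1.26 and 1.64. Of 7 TGF-beta target genes 4 passed (57.1%, against 53.9% of all genes) and 1 was called (14.3%, against 24.9%). Tgfbi, Col1a1 and Fn1, which encode matrix proteins, rose by 0.80, 0.66 and 0.64 (adjusted p 0.000131, 0.00581 and 0.000664), all below 2-fold. Ccn2 fell by 1.14 (adjusted p 0.000709) and was the gene called. Within slide 10 of the 40 were called (against 11.7% of all genes), and leaving out SCC replicate 2 gave 20 calls (against 28.1%), with Cdkn2b (1.35) and Id4 (-1.14) added. Of the 27 genes of this list that passed, 14 did not within slide (adjusted p 0.0501 to 0.618). Among these were Gdf10, Inhbe, Bmper, Sostdc1, Dcn, Itgb6, Itgav, Smurf2, Ccn2 and Col1a1.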

How the data were processed

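Total RNA from 5 WT lungs and 5 SCC tumours was labelled with Cy3 and hybridised by the authors to 1-colour Agilent whole mouse genome arrays, and the scans were read with Agilent Feature Extraction 12 per the labels. For each spot the deposited files give a background-subtracted processed intensity on a linear scale, and the deposited matrix holds the authors' log2 values, which matched the values below at r of at least 0.9999 on each array. Neither gives a count, and the number of arrays limits the precision.

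Following the study's methods, processed intensities were quantile-normalized and taken to log2. Control and outlier-flagged spots were left out and spots of a probe averaged. Of 41174 probes, 30374 were tested, those well above background on at least 4 of 5 arrays of a group; no spot was saturated. Differences were fitted with limma 3.58.1 (R 4.3.3; lmFit and eBayes, two-sided, 10 arrays, no covariates) in place of the methods' one-way analysis of variance, with Benjamini-Hochberg adjustment over all tested probes. Calls needed an adjusted p below 0.05 and a 2-fold difference. Single values were also compared by an exact two-sided permutation test over 252 splits. On simulated data over 30374 probes, 152 of 200 probes changed by 2 log2 units were recovered (76.0%), with 4 false calls. The simulated noise was independent and normal, without slides or deviating arrays. On the real arrays 6954 probes were called, so these rates need not carry over to them.

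Accessions were matched to symbols through RefSeq (GRCm38.p6), which named 28223 probes (68.5%) of 19096 genes. That build is not the array's, so only promoter windows carry coordinates. The genes, pathway lists, marker lists and tests were chosen with earlier results of these data known. Every listed gene is accounted for, with values on each array for those called or resting on 1 array; the further pathway genes named are called ones and those next to them in role, and some that enter the counts are not reported here singly. Columns of other samples were not used. Same-numbered WT and SCC samples did not deviate together, so replicate numbers were not treated as pairs.

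Alternatives were 75th-percentile scaling, the deposited matrix, normexp background correction with offset 50 (on median spot signals, since mean spot signals were not used here), other filters on dim probes, blocks for slide and replicate number, array weights, the methods' t-test, leaving out arrays, averaging probes and the adjusted p alone. Naming probes by the scanner files' gene names was not run, because the files used here have no such column.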

Additional observations from a re-analysis of the deposited data

Results flagged for a closer look

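In each group the gap between the highest or lowest array and its neighbour was divided by the range of the group, and a ratio above 0.71 for 5 arrays marked an array far from the rest. Chance marks about 1 in 20 groups, and 6 of the 88 groups of arrays examined over the 44 genes were marked, 5 of them through SCC replicate 2. For Tgfb1 that array was lowest, at 9.33 against 10.31 to 10.61 (ratio 0.767). Fstl1 was also lowest there, at 12.68 against 13.80 to 14.25 (ratio 0.7103). SCC replicate 2 was highest for Bmp4, at 11.20 against 10.39 to 10.59 (ratio 0.755), for Tgfbr2, at 15.02 against 14.32 to 14.48 (ratio 0.773), and for Bmpr2, at 13.54 against 12.88 to 13.06 (ratio 0.724). Among WT groups 1 was marked, Tgif1, which was at 9.12 on WT replicate 1 against 8.60 to 8.72 (ratio 0.761).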

How the results depend on the processing

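Beside 19 called of 44 genes, 6954 called of 30374 probes and 18 called of 40 genes of the second list, normexp gave 12, 3969 and 15. With slide as a fixed block the counts were 11, 2989 and 10, and with an adjusted p alone 30, 14878 and 27. A replicate block gave 16, 6571 and 18, so that Bmpr1b, Grem1 and Nog lost the call, and correlations of the deviations of same-numbered samples lay between -0.103 and 0.00867. Leaving out each replicate gave 17 to 20, 6385 to 8135 and 18 to 20. Under 75th-percentile scaling the share of called probes that were higher went from 43.3% to 53.2%, and the median of all probes from -0.09 to 0.03. Over the 30 genes that passed, 578 of 639 values under an alternative kept their direction and side of the threshold, 61 no longer passed and none reversed. Reversals were limited to genes that had not passed. With array weights Tgfb3 was 0.0139 and Smad3 -0.0408, without SCC replicates 2 and 5 Smad3 was -0.102 and Id1 -0.00689, with slide as a fixed block Acvr1 was -0.158, and with the mean of its probes Smad5 was 0.0241. Leaving out each replicate gave -0.0898 to 0.0525 for Tgfb3, -0.0715 to 0.486 for Inha, -0.00528 to 0.105 for Acvr1, -0.157 to 0.0932 for Smad3, -0.0305 to 0.246 for Chrd and -0.0421 to 0.254 for Id1. Naming probes by gene names in the scanner files was not run. The causes were not tested.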
